A study of Homo sapiens with 12 samples.

Results

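The genes described here are those of the 4 human HOX clusters, taken as every row of the deposited count table whose symbol is HOX followed by the cluster letter A to D and the paralogue number. The table held 38 such rows among 17518 genes, and the values, counts and sums below are those of 37 of them. RNA sequencing had been done on 12 libraries of the cell lines MUTZ-1 and SKM-1, both labelled as human myelodysplastic syndrome cells from marrow. The 4 groups of 3 libraries were MUTZ-1 cells with a short hairpin RNA (shRNA) against NUDT21, MUTZ-1 cells with a control shRNA, SKM-1 cells with the NUDT21 shRNA and SKM-1 cells with the control shRNA. The genotype label of the control libraries is WT, the knockdown libraries carry a single hairpin name, sh1, and each line is one line in culture. The protein made from NUDT21 is part of cleavage factor Im and binds nascent RNA near poly(A) sites. Nothing in the labels says that the replicates of a group were separate cultures, so the p-values below reflect the spread of these libraries alone, and that spread may be technical.

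HOX genes encode homeodomain transcription factors that give cells their position along the body axis. Within each cluster the genes lie in the order of their paralogue numbers, low numbers being used in anterior and high numbers in posterior parts of the embryo. In blood formation, genes of the HOXA and HOXB clusters are active in stem and progenitor cells and are turned down on differentiation, HOXC genes are used in some lymphoid and erythroid cells, and the HOXD cluster is mostly silent. Trithorax proteins of the MLL family keep HOX genes active, Polycomb complexes keep them silent, CDX factors and retinoic acid receptors act upstream, and TALE homeodomain proteins such as MEIS1 and PBX2 bind DNA together with HOX proteins.

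The hairpin's target was low in every knockdown library. NUDT21 stood at 135, 136 and 142 CPM (counts relative to library size, after scaling by trimmed means of M values, TMM) in MUTZ-1 knockdown libraries, against 301, 297 and 301 CPM in MUTZ-1 controls. In SKM-1 it stood at 131, 132 and 129 CPM after knockdown, against 322, 336 and 344 CPM in controls. The knockdown left 46.1% of the control level in MUTZ-1 (edgeR quasi-likelihood test, Benjamini-Hochberg adjusted p = 1.01e-94) and 39.2% in SKM-1 (adjusted p = 4.87e-112). Libraries held 15843012 to 18426619 counts.

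The labelled cell types were set against marker genes. All 6 B-lineage markers were above 1 CPM in both MUTZ-1 groups, with a summed level of 1616 to 1661 CPM after knockdown and 1809 to 1812 CPM in controls, while 1 of the 6 myeloid and progenitor markers, SPI1, which B cells use too, was above 1 CPM and MPO and CD34 had 0 counts after knockdown and 0 and 1 count in controls. In SKM-1, 3 of the 6 myeloid and progenitor markers were above 1 CPM in each group and summed to 69.1 to 80.5 CPM after knockdown and 65.2 to 69.6 CPM in controls, with CD34 at 0 counts in both groups and MPO at 0 counts after knockdown and 1 in controls. The similar sums hide opposite shifts. CD33 averaged 39.8 CPM after knockdown and 8.55 CPM in controls, SPI1 26.2 and 9.36 CPM, and KIT 7.1 and 49.4 CPM. The 6 erythroid markers summed to 2419 to 2624 CPM after knockdown, against 615 to 636 CPM in controls. The 5 epithelial markers summed to 764 to 789 CPM in SKM-1 knockdown libraries, against 374 to 382 CPM in SKM-1 controls, with CDH1 near 0 in both. The summed level of the 5 fibroblast markers ran the other way, at 12.5 to 15.8 CPM after knockdown against 56.7 to 62.1 CPM in controls. Most of the control sum was COL3A1, at 46.2 CPM against 1.75 CPM after knockdown. COL1A2 was higher after knockdown, at 10.3 CPM against 2.65 CPM in controls. MUTZ-1 thus went against its myeloid label and SKM-1 held markers of several cell types beside myeloid ones, and both are called here by their labelled names only. Median log2 fold changes per chromosome in SKM-1 lay between -1.07 on chromosome 13 and 0.54 on chromosome 21, against -0.037 to 0.028 in MUTZ-1. In SKM-1 an effect of NUDT21 and a difference between the cell populations that were compared cannot be told apart, and this holds for every SKM-1 value below.

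The HOXA genes described span 99.7 kb of chromosome 7 (chr7:27100354-27200091, build GRCh38.p14). HOXB spans 200.2 kb of chromosome 17 (chr17:48528526-48728750), HOXC 117.2 kb of chromosome 12 (chr12:53938831-54056030) and HOXD 103.4 kb of chromosome 2 (chr2:176087487-176190907). The HOXB span begins with HOXB1, which has no row in the count table, and the HOXB genes described begin with HOXB2 at base 48542655. Most neighbouring genes of a cluster lie within a few kilobases of each other, but HOXB13 is 98.4 kb away from HOXB9. Transcripts overlap in several places of the GENCODE annotation of GRCh38. HOXD4 shares 80.5% and HOXD3 62.2% of its exonic bases with AC009336.2 on the same strand, and HOXA7 shares 62.5% and HOXD1 58.1% with antisense genes. HOXC4, HOXC5 and HOXC6 share exonic bases among themselves, as do HOXB3, HOXB4 and HOXB6. Neither the annotation nor the strand setting of the counting is known from the sources used, so reads of these genes could have been split or dropped, and their values are uncertain to that extent.

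Promoter sequences of RefSeq (GRCh38.p14) were at hand for 19 of the 37 genes. The 250 bases upstream of the start of 4 of them are shown because these genes mark the results below: HOXA13 and HOXA4 were called higher in MUTZ-1 and lower in SKM-1, and HOXD13 and HOXD4 had the highest counts of the HOXD cluster. Capitals mark matches on either strand to 3 motifs: TATAAA, the core promoter box, TGATNNAT, a composite site of PBX with HOX proteins, and TGACAG, a site of MEIS proteins.
HOXA13 (chr7:27200092-27200341, minus strand): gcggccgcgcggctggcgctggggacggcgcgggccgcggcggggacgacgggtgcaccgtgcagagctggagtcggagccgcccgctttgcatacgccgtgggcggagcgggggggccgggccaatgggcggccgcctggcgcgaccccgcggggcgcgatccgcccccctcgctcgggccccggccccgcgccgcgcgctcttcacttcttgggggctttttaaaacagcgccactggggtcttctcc
HOXA4 (chr7:27130758-27131007, minus strand): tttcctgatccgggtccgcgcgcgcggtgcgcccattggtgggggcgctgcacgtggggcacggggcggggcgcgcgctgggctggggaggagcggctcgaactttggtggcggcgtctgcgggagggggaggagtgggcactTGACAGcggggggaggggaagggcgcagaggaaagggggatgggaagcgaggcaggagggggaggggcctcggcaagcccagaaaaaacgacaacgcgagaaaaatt
HOXD13 (chr2:176092471-176092720, plus strand): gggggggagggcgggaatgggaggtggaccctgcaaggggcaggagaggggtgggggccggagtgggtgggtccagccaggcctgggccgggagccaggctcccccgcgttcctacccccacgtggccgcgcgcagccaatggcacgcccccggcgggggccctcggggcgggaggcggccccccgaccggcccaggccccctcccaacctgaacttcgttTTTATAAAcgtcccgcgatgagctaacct
HOXD4 (chr2:176151300-176151549, plus strand): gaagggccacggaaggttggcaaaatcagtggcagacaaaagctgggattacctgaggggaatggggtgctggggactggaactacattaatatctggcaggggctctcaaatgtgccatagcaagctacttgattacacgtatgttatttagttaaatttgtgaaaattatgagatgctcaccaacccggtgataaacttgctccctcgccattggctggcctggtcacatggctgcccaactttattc
RefSeq's longest span of HOXD13 begins before its window, which precedes a later start. The HOXD13 window holds overlapping TATAAA matches on the 2 strands, the HOXA4 window holds 1 TGACAG match, and the other windows hold none of the 3 motifs. The HOXA13 window is rich in CpG, with 40 CpG dinucleotides, against 4 in the HOXD4 window and a median of 21 over the 19 HOX windows and 19 over 13775 genes. TATAAA was found in 4 of the 19 HOX windows (21.1%) and in 7.6% of all 13775 windows. TGATNNAT was found in 2 HOX windows (10.5%), against 3.7% of all, and TGACAG in 2 (10.5%), against 11.5% of all. These letter counts describe the windows and say nothing of binding.

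Levels of different genes were compared per transcript length, in the deposited FPKM values (fragments scaled by transcript length in kilobases and by library size). The 2 MUTZ-1 groups had their HOX RNA mainly from paralogue positions 3 to 7 together with HOXA13, whereas SKM-1 controls had it from all 4 clusters and SKM-1 knockdown cells mostly from HOXB. In MUTZ-1, HOXA made up 43.8% of the summed HOX FPKM after knockdown and 42.0% in controls, HOXB 36.2% and 40.03%, HOXC 19.99% and 17.9%, and HOXD 0.106% and 0.0865%. In SKM-1 the share of HOXB was 93.3% after knockdown and 41.3% in controls, that of HOXA 0.184% and 5.74%, that of HOXC 5.42% and 32.8%, and that of HOXD 1.11% and 20.3%. Positions 9 to 13 held 4.89% of the HOX total after knockdown and 3.22% in controls of MUTZ-1, and 52.6% after knockdown and 62.2% in controls of SKM-1. A group mean of at least 1 CPM was reached by 10 genes in MUTZ-1 knockdown cells, the same number in MUTZ-1 controls, 15 in SKM-1 knockdown cells and 28 in SKM-1 controls. In bulk RNA such as this, fewer cells that express a gene and less of its RNA per cell cannot be told apart.

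**Figure D1:**
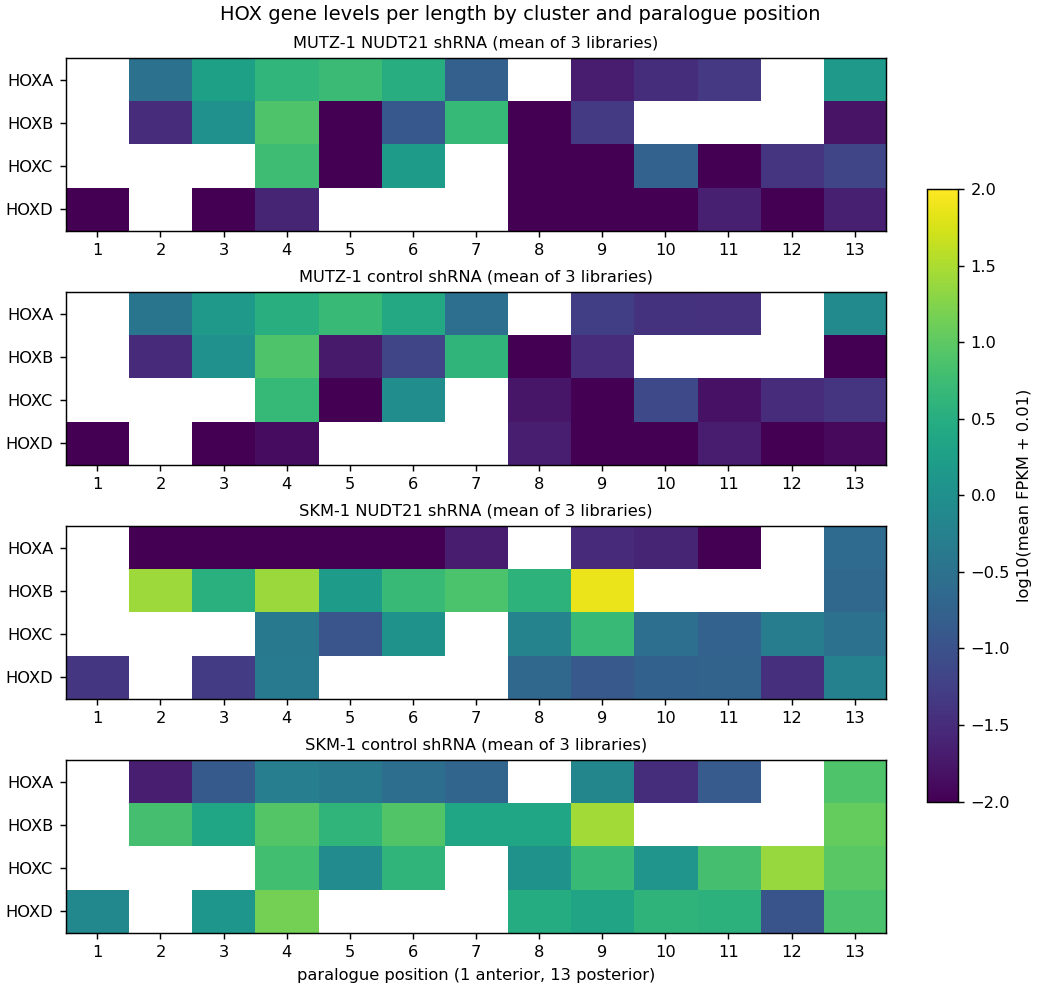
Heat maps of mean FPKM (log10 of FPKM + 0.01, n = 3 libraries a group) with the HOX clusters as rows and paralogue positions 1 to 13 as columns; white cells are positions with no value shown. Both MUTZ-1 groups are bright at positions 3 to 6 of HOXA, SKM-1 knockdown cells in the HOXB row, where HOXB9 has 75.1 FPKM, and SKM-1 controls in all 4 rows.

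The order of levels per length differed between the groups. In MUTZ-1 controls HOXB4 (7.84 ± 0.608 FPKM, SD, n = 3) led, followed by HOXA5 (5.01 ± 0.134 FPKM) and HOXC4 (4.81 ± 0.115 FPKM), whose spreads overlapped, and then HOXB7 (4.11 ± 0.406 FPKM) and HOXA4 (3.20 ± 0.165 FPKM). In SKM-1 knockdown cells HOXB9 stood far above the rest at 75.1 ± 1.37 FPKM, with HOXB2 at 25.7 ± 2.76 FPKM and HOXB4 at 24.8 ± 1.25 FPKM within each other's spread, then HOXB7 at 7.30 ± 0.539 FPKM, HOXB6 at 5.22 ± 0.216 FPKM and HOXC9 at 5.10 ± 0.418 FPKM. In SKM-1 controls the order began with HOXB9 at 27.9 ± 1.35 FPKM, HOXC12 at 24.0 ± 1.06 FPKM, HOXD4 at 14.3 ± 0.341 FPKM and HOXB13 at 11.3 ± 0.222 FPKM. HOXC13, HOXB4, HOXB6 and HOXA13 followed at 9.37 ± 1.04, 8.59 ± 0.756, 8.29 ± 0.285 and 7.91 ± 0.444 FPKM, each overlapping its neighbour's spread. The lengths behind these values were the authors': those implied for HOXD4 (5144 bases) and HOXD13 (6442 bases) exceed the 1464 and 2240 exonic bases of GENCODE. The FPKM of these genes thus depend on the gene model, and reads were not counted on the shorter models.

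Summed over the genes of a cluster, the CPM differed less between the MUTZ-1 groups than between the SKM-1 groups. HOXA summed to 37.7 ± 0.848 CPM in MUTZ-1 knockdown cells and 30.4 ± 1.23 CPM in MUTZ-1 controls (SD, n = 3 each), and to 1.33 ± 0.194 CPM in SKM-1 knockdown cells and 42.03 ± 2.57 CPM in SKM-1 controls. The HOXB sums were 31.9 ± 2.43 CPM after knockdown and 31.9 ± 1.09 CPM in controls of MUTZ-1, and 362 ± 8.15 CPM after knockdown and 184 ± 3.41 CPM in controls of SKM-1. For HOXC the sums were 17.8 ± 1.27 and 14.2 ± 0.699 CPM in MUTZ-1 knockdown and control cells, and 16.0 ± 1.17 and 151 ± 5.07 CPM in SKM-1 knockdown and control cells. HOXD was at 0.182 ± 0.0609 CPM after knockdown and 0.0755 ± 0.0653 CPM in controls of MUTZ-1, and at 7.38 ± 0.295 CPM after knockdown and 142 ± 3.69 CPM in controls of SKM-1. Sums were not tested, and genes with many counts dominate them.

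**Figure D2:**
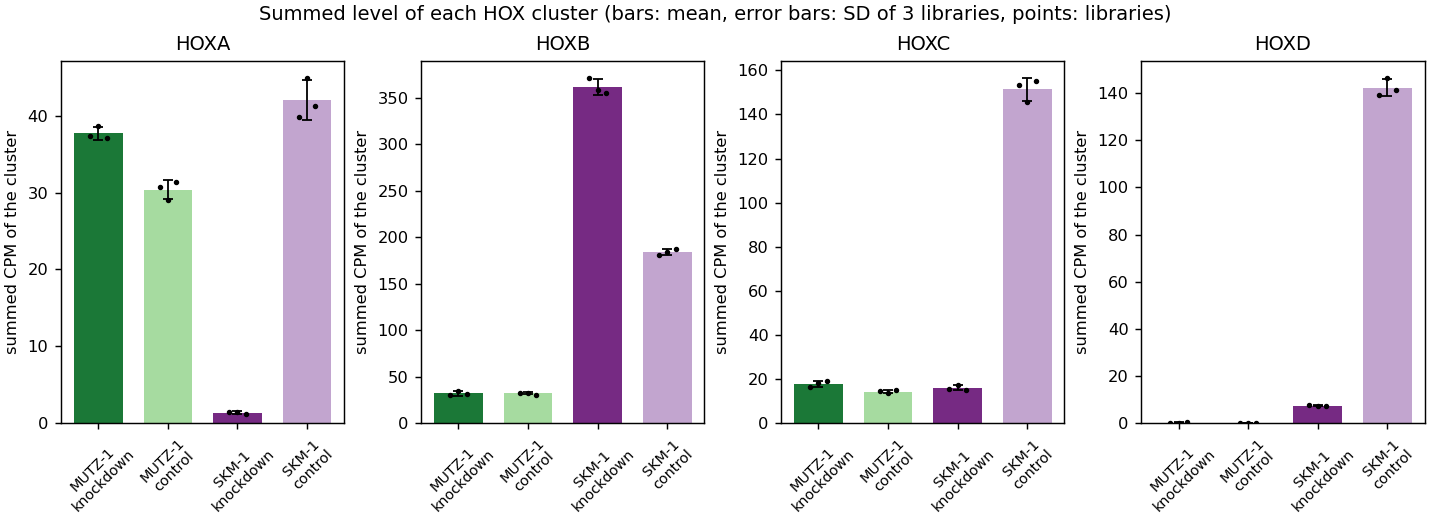
Summed CPM of each HOX cluster in the 4 groups; bars are means, error bars the SD of 3 libraries and points the libraries. In SKM-1, HOXA, HOXC and HOXD are low after knockdown (1.33, 16.0 and 7.38 CPM) beside controls (42.03, 151 and 142 CPM), while HOXB is higher after knockdown (362 CPM) than in controls (184 CPM).

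Knockdown in MUTZ-1 raised 3 of the 10 HOX genes that reached a mean of 1 CPM there. HOXA13, which patterns the distal limb and the genital tract, rose most, and HOXC6 and HOXA4 rose less. Of the 32 members that passed the filter on low counts, 3 rose and 0 fell at an adjusted p under 0.05 (edgeR quasi-likelihood test), and 49.0% of the 13625 genes tested were called. The members' count is not read against that share, since 22 of the 32 stayed under 1 CPM in both MUTZ-1 groups and passed the filter through counts in SKM-1. None of the 32 was called at least 2-fold higher or lower, against 3.11% and 1.64% of all genes. Among the 10 members with a mean of at least 1 CPM in either group, 3 were called, with a median log2 fold change of 0.22 against 0 over all genes. No call was made among the other 22, and what change their counts could show is limited by this depth. No count at all was found for 12 of the 37 members after knockdown and for 9 in controls.

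HOXA13 stood at 7.62, 7.76 and 6.78 CPM after knockdown, against 4.76, 4.24 and 3.39 CPM in controls (log2 fold change 0.84 ± 0.14, adjusted p = 2.84e-08, ± SE). Every knockdown library was above every control library. HOXC6, a paralogue group 6 gene of the thoracic region, stood at 3.34, 3.31 and 3.93 CPM after knockdown, against 2.09, 1.67 and 2.49 CPM in controls (0.75 ± 0.21, adjusted p = 0.00104), again without overlap. HOXA4 stood at 6.68, 6.94 and 8.57 CPM after knockdown, against 5.55, 5.38 and 5.94 CPM in controls (0.40 ± 0.17, adjusted p = 0.0388). The groups did not overlap, but the call lies near the threshold. HOXA4 was not called with DESeq2 (adjusted p = 0.0677), without control replicate 1 (0.0648), control replicate 2 (0.0840) or knockdown replicate 3 (0.232). The count of called members was 2 with DESeq2, without control replicate 1, without control replicate 2 and without knockdown replicate 3. With library totals alone, and with limma on either FPKM scale, 5 members rose and 0 fell. With library totals 60.7% of all calls were then higher, against 49.8% with TMM scaling. HOXA13 and HOXC6 kept their calls in all the alternatives tried.

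The other genes described were not called in MUTZ-1. HOXA3, needed for pharyngeal organs in the mouse, stood at 9.73, 9.99 and 9.70 CPM after knockdown, against 7.81, 6.99 and 8.82 CPM in controls (0.31 ± 0.14, adjusted p = 0.0601), without overlap of the groups. The edgeR test called HOXA3 in the MUTZ-1 libraries alone (adjusted p = 0.0197) and with at least 1 CPM in at least 3 libraries (0.03975). It also did so with library totals (0.0282) and without control replicate 3 (0.0377), as did limma on either FPKM scale. HOXA5 had 10.5, 9.42 and 7.14 CPM after knockdown and 8.94, 8.72 and 8.48 CPM in controls. HOXA6 had 1.93, 3.63 and 3.69 CPM after knockdown and 2.21, 2.15 and 3.51 CPM in controls. The knockdown replicates of these 2 genes spread around the control values. HOXB3 had 8.67, 9.93 and 8.81 CPM after knockdown and 9.62, 9.20 and 9.39 CPM in controls. HOXB4, which expands blood stem cells when overexpressed, had 14.0, 17.5 and 15.9 CPM after knockdown and 16.8, 17.4 and 14.9 CPM in controls. HOXB7 had 6.80, 6.94 and 5.83 CPM after knockdown and 6.28, 5.20 and 6.05 CPM in controls. None of these 3 HOXB genes separated the groups (adjusted p = 0.783, 0.662 and 0.405). HOXC4 stood at 12.7, 13.9 and 14.4 CPM after knockdown, against 11.9, 11.5 and 11.9 CPM in controls (0.21 ± 0.11, adjusted p = 0.0975), with all knockdown libraries above the controls. HOXA9 and MEIS1, which drive self-renewal together in acute leukaemia, were near 0 in MUTZ-1: HOXA9 had 1 count over the knockdown libraries and 5 over the controls. Of the members that did not pass the filter, HOXA2 had 26 counts after knockdown and 32 in controls, HOXA7 16 and 30, HOXA10 3 and 4, HOXA11 5 and 4, and HOXD12 0 and 0.

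**Figure D3:**
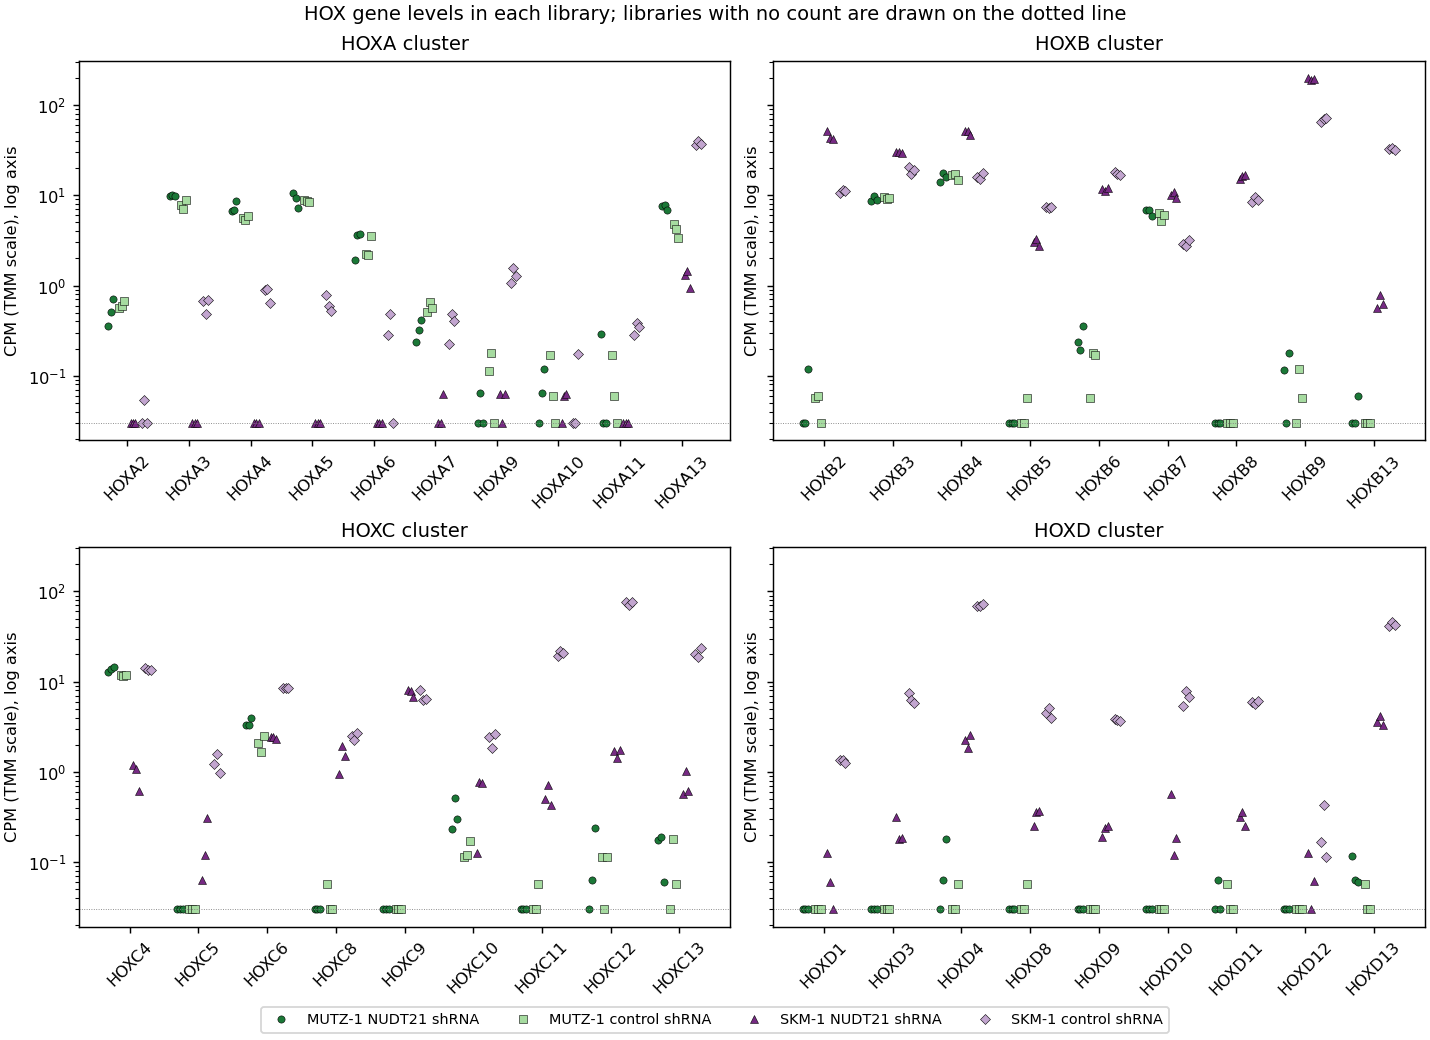
CPM of each HOX gene described in each of the 12 libraries on a log axis, with a panel for each cluster; libraries with no count are drawn on the dotted line. In MUTZ-1 the symbols of both groups lie close together, for HOXA13 at 6.78 to 7.76 CPM after knockdown and 3.39 to 4.76 CPM in controls, while in SKM-1 most HOXA, HOXC and HOXD genes of the knockdown libraries lie far below the controls.

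In SKM-1, 31 of the 32 tested members were called: 25 were lower and 6 higher after knockdown. All 6 tested HOXA genes, 8 of 9 HOXC genes and all 8 tested HOXD genes fell, and the 6 that rose were all of HOXB. That is 96.9% of members called, against 84.4% of the 13625 genes tested, with 23 of 32 at least 2-fold lower against 22.5% of all genes and 4 at least 2-fold higher against 12.6%. The median log2 fold change of the members was -3.92 by the fitted values and -3.46 with the 4 genes without a count after knockdown set to their bound, against 0 over all genes. Some members, such as HOXA9, HOXC5, HOXD1 and HOXD3, passed the filter on low counts only through SKM-1 controls, where they are highest. Their fall is partly set by that filter, so the members' counts and median are not read against those of all genes.

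The HOXB genes that rose lie between positions 2 and 9 of the cluster. HOXB9, a posterior gene of the cluster, stood at 198, 191 and 196 CPM after knockdown, against 64.5, 69.7 and 70.9 CPM in controls (log2 fold change 1.51 ± 0.04, adjusted p = 5.67e-94). HOXB2, a hindbrain gene, stood at 51.0, 43.5 and 41.8 CPM after knockdown, against 10.5, 11.4 and 11.2 CPM in controls (2.04 ± 0.091, adjusted p = 1.07e-56). HOXB4 stood at 51.8, 50.9 and 46.9 CPM after knockdown, against 16.1, 15.0 and 17.9 CPM in controls (1.61 ± 0.073, adjusted p = 1.22e-55). In all 3 the lowest knockdown library was above the highest control library by more than the spread within either group. HOXB7 stood at 9.96, 10.8 and 9.25 CPM after knockdown, against 2.87, 2.77 and 3.22 CPM in controls (1.76 ± 0.16, adjusted p = 5.28e-23). HOXB8, which blocks myeloid differentiation when overexpressed in mouse cells, stood at 15.1, 16.3 and 16.9 CPM after knockdown, against 8.32, 9.55 and 8.85 CPM in controls (0.86 ± 0.13, adjusted p = 1.96e-10). HOXB3 stood at 29.8, 30.3 and 29.7 CPM after knockdown, against 20.6, 17.4 and 19.1 CPM in controls (0.65 ± 0.08, adjusted p = 7.81e-14). These 3 also rose without overlap, HOXB3 least.

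The other 3 HOXB genes fell. HOXB5 stood at 3.01, 3.29 and 2.73 CPM after knockdown, against 7.36, 7.27 and 7.47 CPM in controls (-1.29 ± 0.19, adjusted p = 2.62e-10), and HOXB6 averaged 11.6 ± 0.457 CPM after knockdown (SD, n = 3), against 18.1, 17.4 and 17.0 CPM in controls (-0.59 ± 0.12, adjusted p = 1.48e-06). The 2 genes lie between HOXB4 and HOXB7, which rose. HOXB13, a gene of the hindgut and prostate that sits apart from the rest of the cluster, stood at 0.564, 0.778 and 0.620 CPM after knockdown, against 32.4, 33.1 and 31.9 CPM in controls (-5.61 ± 0.17, adjusted p = 4.47e-82). The knockdown libraries thus held 2.02% of its control level, while HOXB9 had risen. TTLL6, which begins 33484 bases beyond HOXB13, stood at 0, 0 and 0.0620 CPM after knockdown, against 1.85, 2.06 and 2.30 CPM in controls.

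All tested HOXA genes fell to low levels. HOXA13 had by far the most counts of the cluster, at 1.32, 1.44 and 0.931 CPM after knockdown, against 35.7, 39.9 and 37.3 CPM in controls (-4.93 ± 0.14, adjusted p = 4.83e-89), and is the 1 HOXA gene with a mean above 1 CPM in knockdown cells. HOXA9 stood at 0.0627, 0 and 0.0620 CPM after knockdown, against 1.07, 1.57 and 1.26 CPM in controls, with 2 and 70 counts over the groups, which is 31.8-fold lower (95% interval 8.49 to 268). Intervals and floors cover counting error only. HOXA3, HOXA4, HOXA5 and HOXA6 had no count in any knockdown library, against 33, 44, 34 and 14 counts over the 3 controls. With a floor of 3 counts over the group they were at least 10.0-, 13.3-, 10.3- and 4.25-fold lower, from controls that were all under 1 CPM. HOXA6 had no count in control replicate 3 either, so its groups overlap. HOXA2, HOXA7, HOXA10 and HOXA11 did not pass the filter on low counts and had 0, 1, 2 and 0 counts after knockdown, against 1, 20, 3 and 18 in controls.

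In HOXC the fall was steepest at the posterior end, HOXC11 to HOXC13. HOXC12 stood at 1.69, 1.44 and 1.74 CPM after knockdown, against 76.6, 70.7 and 76.2 CPM in controls (-5.52 ± 0.11, adjusted p = 2.60e-115). HOXC11 stood at 0.501, 0.718 and 0.434 CPM after knockdown, against 19.3, 22.1 and 20.6 CPM in controls (-5.20 ± 0.20, adjusted p = 9.84e-65). HOXC13, a gene of hair and nails, stood at 0.564, 1.02 and 0.620 CPM after knockdown, against 20.5, 18.9 and 23.5 CPM in controls (-4.81 ± 0.19, adjusted p = 4.98e-63). These neighbours, which had the most counts of the cluster in controls, were left at 2.18%, 2.67% and 3.50% of the control level. HOXC10 stood at 0.125, 0.778 and 0.745 CPM after knockdown, against 2.42, 1.85 and 2.64 CPM in controls (-2.04 ± 0.35, adjusted p = 4.41e-08). HOXC9 stood at 8.02, 7.78 and 6.83 CPM after knockdown, against 7.98, 6.30 and 6.49 CPM in controls (0.12 ± 0.16, adjusted p = 0.471), and was the 1 tested member that was not called. Its interval covered 84.2% to 141% of the control level, so that a modest change in either direction is within it. HOXC8 stood at 0.940, 1.91 and 1.49 CPM after knockdown, against 2.53, 2.28 and 2.70 CPM in controls (-0.78 ± 0.28, adjusted p = 0.00834), a call that was lost without knockdown replicate 1 (adjusted p = 0.0911). Its knockdown libraries were all below the controls. HOXC6 stood at 2.44, 2.45 and 2.30 CPM after knockdown, against 8.60, 8.58 and 8.56 CPM in controls (-1.84 ± 0.18, adjusted p = 5.74e-20). HOXC4 stood at 1.19, 1.08 and 0.620 CPM after knockdown, against 14.1, 13.4 and 13.6 CPM in controls (-3.82 ± 0.17, adjusted p = 9.16e-56). HOXC5 stood at 0.0627, 0.120 and 0.310 CPM after knockdown, against 1.24, 1.57 and 0.977 CPM in controls (-2.89 ± 0.52, adjusted p = 1.59e-07). All 3 fell without overlap of the groups, and they share exonic bases.

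HOXD genes fell together. HOXD4 stood at 2.26, 1.85 and 2.54 CPM after knockdown, against 68.4, 69.6 and 71.9 CPM in controls (-4.98 ± 0.11, adjusted p = 1.75e-110). HOXD13, whose mutations cause synpolydactyly, stood at 3.57, 4.13 and 3.29 CPM after knockdown, against 41.9, 46.2 and 42.0 CPM in controls (-3.56 ± 0.11, adjusted p = 2.12e-80). HOXD3, next to HOXD4, stood at 0.313, 0.179 and 0.186 CPM after knockdown, against 7.53, 6.30 and 5.86 CPM in controls (-4.82 ± 0.34, adjusted p = 6.80e-32). All 3 fell without overlap of the groups, with 3.17%, 8.45% and 3.45% left. HOXD8 stood at 0.251, 0.359 and 0.372 CPM after knockdown, against 4.44, 5.05 and 3.96 CPM in controls, and HOXD9 at 0.188, 0.239 and 0.248 CPM after knockdown, against 3.88, 3.80 and 3.68 CPM in controls. HOXD10 stood at 0.564, 0.120 and 0.186 CPM after knockdown, against 5.39, 7.87 and 6.72 CPM in controls, and HOXD11, a forearm gene, at 0.313, 0.359 and 0.248 CPM after knockdown, against 6.01, 5.70 and 6.03 CPM in controls. The log2 fold changes of these 4 were -3.75, -4.03, -4.50 and -4.23, all with an adjusted p of at most 1.02e-20. HOXD1 stood at 0.125, 0.0598 and 0 CPM after knockdown, against 1.35, 1.36 and 1.26 CPM in controls, with 3 and 71 counts, which is 21.5-fold lower (95% interval 7.08 to 107). HOXD12 did not pass the filter, with 3 counts after knockdown and 13 in controls.

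**Figure D4:**
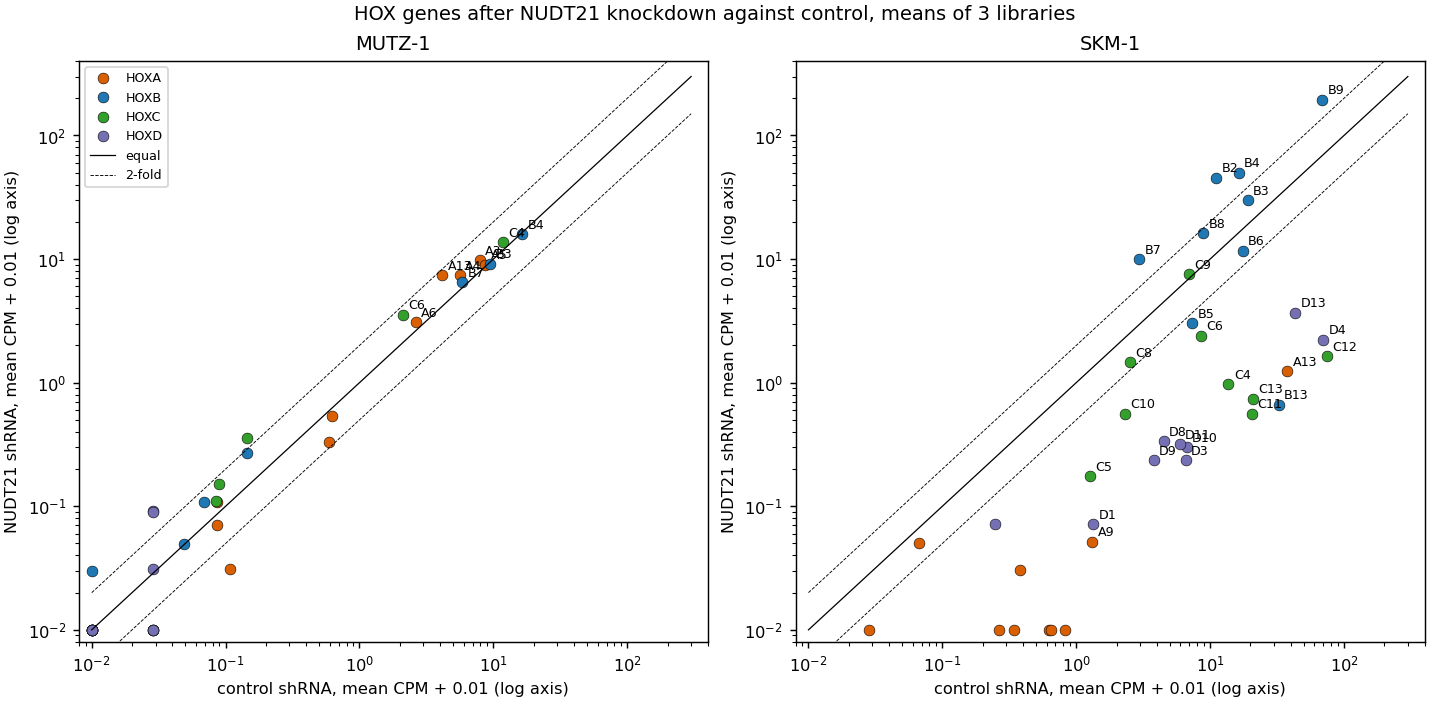
Mean CPM of each HOX gene described after NUDT21 knockdown (vertical axis) against control (horizontal axis), both as CPM + 0.01 on log axes, with a panel for MUTZ-1 and for SKM-1; the solid line marks equal levels and the dashed lines 2-fold. In MUTZ-1 the genes above 1 CPM lie within the 2-fold lines, and in SKM-1 6 HOXB genes lie above the line of equal levels, HOXC9 close to it, and most other genes far below it.

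Most, but not all, abundant HOX genes of SKM-1 controls were left at low shares of their control level. HOXB9 rose instead, from an average of 68.4 CPM in SKM-1 controls to 195 CPM after knockdown. The 7 members with a control mean of at least 20 CPM that fell, HOXA13, HOXB13, HOXC11, HOXC12, HOXC13, HOXD4 and HOXD13, were left at 2.02% to 8.45% (median 3.17%) of the control level. Read the other way, the 6 members that rose had controls at 24.3% to 63.6% of the knockdown level, lowest for HOXB2 at 24.3% and highest for HOXB3 at 63.6%. The same shares are given for 5 genes of other programmes, which do not all lie within these ranges. Controls stood at 23.7% of the knockdown level for GATA1, the erythroid master regulator, at 24.4% for the fetal globin gene HBG2 and at 21.2% for the keratin gene KRT19, and knockdown cells at 3.79% of the control level for the collagen gene COL3A1 and 14.4% for the stem cell factor receptor KIT. Some other markers listed with COL3A1 and KIT went the other way, since COL1A2, CD33 and SPI1 were higher after knockdown. The part of such shifts of cell markers in the HOX result was not tested.

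Between the lines, MUTZ-1 controls held more of the HOXA genes of positions 3 to 6 and less of most other tested members than SKM-1 controls. Of 32 tested members 5 were higher and 26 lower in MUTZ-1, 96.9% in all, against 90.2% of all genes tested (41.4% higher and 48.8% lower). At least 2-fold, 4 members were higher and 25 lower, against 16.1% and 29.6% of all genes. The members' counts are not read against these shares. Most members stayed under 1 CPM in both MUTZ-1 groups and passed the filter through counts in SKM-1. HOXA3, HOXA4, HOXA5 and HOXA6 were higher in MUTZ-1, by 3.66, 2.77, 3.77 and 3.30 on the log2 scale, and HOXB7 by 0.99. These 4 HOXA genes are neighbours, whereas HOXA13 (-3.19) and HOXA9 (-3.67) were lower in MUTZ-1. HOXB4 did not differ beyond the spread, at 16.8, 17.4 and 14.9 CPM in MUTZ-1 and 16.1, 15.0 and 17.9 CPM in SKM-1 (0.0034 ± 0.084, adjusted p = 0.970), and its sign flips with the scaling. HOXC4 was called lower in MUTZ-1 at the limit (-0.22 ± 0.11, adjusted p = 0.0499), a call lost without a filter on low counts (adjusted p = 0.0628), and without MUTZ-1 control replicate 3 (0.0724) or SKM-1 control replicates 1 (0.129), 2 (0.0663) or 3 (0.0839). HOXB8, HOXB13, HOXC5, HOXC9, HOXD1, HOXD3, HOXD9 and HOXD10 had no count in MUTZ-1 controls. With the floor of 3 counts over the group, HOXB13 was at least 564-fold, HOXB8 at least 155-fold, HOXC9 at least 120.1-fold and HOXD10 at least 116-fold lower there. HOXD4 and HOXD13 had 1 count each over the MUTZ-1 controls, against 3750 and 2327 in SKM-1.

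The difference between the 2 knockdown effects was tested directly, as the effect in MUTZ-1 minus the effect in SKM-1. It was called for 17 of 32 tested members (53.1%), against 72.0% of all genes tested. Among the members 14 differences were called positive and 3 negative, against 36.4% and 35.6% of all genes. Some members, such as HOXD1 and HOXD3, passed the filter only through SKM-1 controls, so the sign of their difference is partly set by that filter. Members with few counts in MUTZ-1 could hardly be called. The members' counts are therefore not read against these shares. On log2(FPKM + 1) and log2(FPKM + 0.1) values, limma called 30 and 31 members. Of the 6 members with at least 1 CPM in a group of both lines, HOXA13, HOXB3, HOXB4, HOXB7, HOXC4 and HOXC6, all were called. HOXA13 and HOXC6 rose in MUTZ-1 and fell in SKM-1, with differences of 5.77 (adjusted p = 4.49e-71) and 2.59 (adjusted p = 2.44e-17). HOXC4 had a difference of 4.03 (adjusted p = 1.57e-46). HOXB3, HOXB4 and HOXB7 were called in SKM-1 and not in MUTZ-1, with differences of -0.70, -1.66 and -1.60. The 15 members without a called difference had at most 5 counts over a group in MUTZ-1.

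Known partners and regulators of HOX proteins were described by the same counts. Over all genes tested, 42.1% rose and 42.3% fell in SKM-1, and 24.4% rose and 24.6% fell in MUTZ-1, so most members of any list were called in SKM-1. Of 9 tested TALE cofactors 4 rose and 5 fell after knockdown in SKM-1, and 2 rose and 3 fell in MUTZ-1. MEIS1 stood at 11.5, 10.5 and 10.2 CPM after knockdown, against 64.3, 65.1 and 65.5 CPM in controls of SKM-1 (-2.60 ± 0.08, adjusted p = 2.17e-82). PBX2, another partner, rose, at 237, 237 and 234 CPM after knockdown, against 134, 132 and 132 CPM in controls (0.83 ± 0.03, adjusted p = 1.46e-69). Both genes separated the groups without overlap. PKNOX2 averaged 0.946 ± 0.526 CPM after knockdown and 27.0 ± 1.46 CPM in controls, and TGIF1 34.3 ± 2.58 CPM after knockdown and 21.2 ± 0.410 CPM in controls. In MUTZ-1, PBX3 averaged 42.1 ± 2.57 CPM after knockdown and 35.4 ± 1.48 CPM in controls (0.25 ± 0.066, adjusted p = 7.07e-04), and PKNOX1 24.0 ± 3.13 CPM after knockdown and 32.4 ± 1.63 CPM in controls (-0.43 ± 0.072, adjusted p = 7.42e-08). MEIS1 had group means under 0.3 CPM in MUTZ-1.

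CDX2, a factor of the hindgut that activates posterior HOX genes, fell steeply in SKM-1. It stood at 34.7, 32.4 and 36.2 CPM in SKM-1 knockdown libraries, against 1175, 1194 and 1179.8 CPM in SKM-1 controls (-5.10 ± 0.053, adjusted p = 3.54e-20), and averaged 1.14 ± 0.578 CPM after knockdown and 0.454 ± 0.462 CPM in controls of MUTZ-1. Of 19 tested CDX and retinoid regulators, 6 rose and 12 fell in SKM-1, against 42.1% and 42.3% of all genes, and 2 rose and 0 fell in MUTZ-1, against 24.4% and 24.6%. Of the 19, 16 were called at least 2-fold lower in MUTZ-1 controls than in SKM-1 controls, and several, such as RARB and STRA6, were near 0 in MUTZ-1. RXRG and CRABP1 passed the filter on low counts only through SKM-1 controls. The list's counts are therefore not read against these shares. The receptor RARB averaged 0.885 ± 0.327 CPM after knockdown and 26.9 ± 0.193 CPM in controls in SKM-1. ALDH1A2, which makes retinoic acid, averaged 373 ± 6.17 CPM after knockdown and 128 ± 2.70 CPM in controls in SKM-1. RARG averaged 11.7 ± 1.16 CPM after knockdown and 7.75 ± 0.170 CPM in controls in MUTZ-1 (0.59 ± 0.10, adjusted p = 4.11e-08), and 18.0 ± 1.50 CPM after knockdown and 131 ± 1.90 CPM in controls in SKM-1. RARG thus moved in opposite directions by its calls in the 2 lines.

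**Figure D5:**
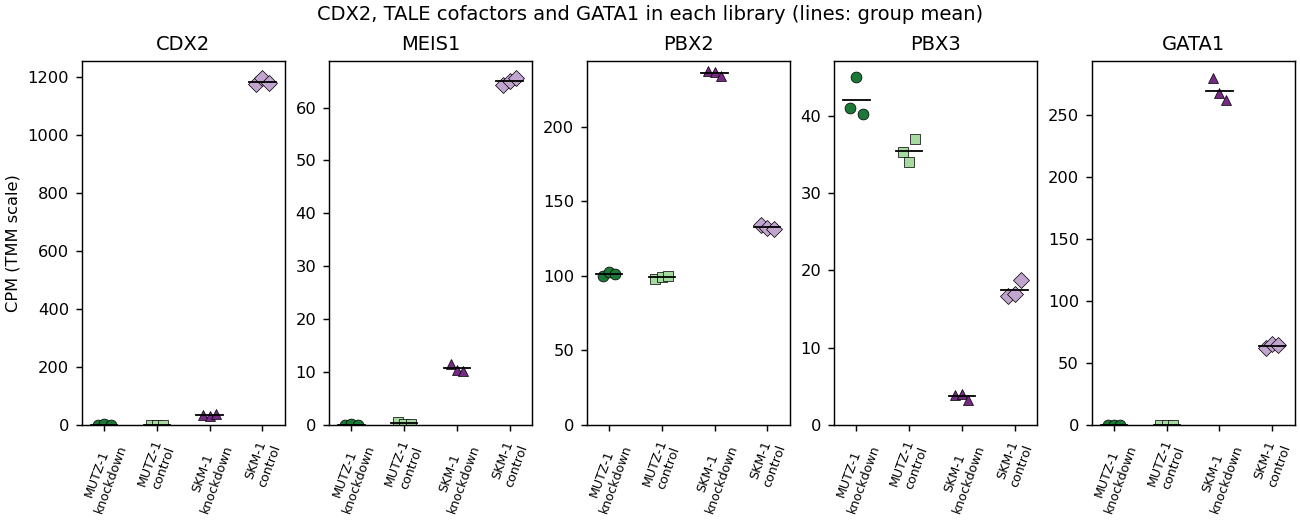
CPM of CDX2, 3 TALE cofactors and the erythroid regulator GATA1 in each library; symbols are libraries and lines group means (n = 3). In SKM-1, CDX2, MEIS1 and PBX3 are lower after knockdown than in controls, PBX2 and GATA1 higher, with no overlap of the groups.

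The chromatin lists held calls in both directions, beside 84.4% of all genes called in SKM-1 and 49.0% in MUTZ-1. Of 28 MLL complex genes and other activators, 16 rose and 8 fell in SKM-1, and 11 rose and 12 fell in MUTZ-1. ASH2L, a core subunit of MLL complexes, averaged 238 ± 0.493 CPM after knockdown and 109 ± 2.11 CPM in controls in SKM-1, and MLLT3, a fusion partner of MLL, averaged 5.07 ± 0.623 CPM after knockdown and 34.3 ± 1.97 CPM in controls. Of 35 Polycomb genes, 15 rose and 15 fell in SKM-1, and 9 rose and 11 fell in MUTZ-1. EZH2, the methyltransferase of Polycomb repressive complex 2, averaged 214 ± 2.88 CPM after knockdown and 122 ± 1.25 CPM in controls in SKM-1, while CBX7 averaged 19.3 ± 1.46 CPM after knockdown and 13.8 ± 1.32 CPM in controls in MUTZ-1 (0.48 ± 0.10, adjusted p = 6.87e-06). Of 12 CTCF and cohesin genes, 6 rose and 5 fell in SKM-1, and 3 rose and 6 fell in MUTZ-1, where CTCF averaged 161 ± 2.55 CPM after knockdown and 190.3 ± 2.45 CPM in controls (-0.24 ± 0.031, adjusted p = 3.76e-12). Median log2 fold changes of these 3 lists were 0.17, -0.028 and 0.098 in SKM-1 and 0.027, -0.015 and -0.080 in MUTZ-1, against 0 over all genes in each line. Medians further from 0 in SKM-1 included those of the HOX genes (-3.92 fitted, -3.46 with bounds), homeobox genes outside the clusters (-2.05) and CDX and retinoid regulators (-1.74). Most tested genes of each of these groups were called lower in MUTZ-1 controls than in SKM-1 controls, and some could pass the filter through SKM-1 controls alone. Their medians are therefore not read against that of all genes. Of 13 tested genes known as HOXA9 and MEIS1 targets, 7 rose and 6 fell in SKM-1, and 6 rose and 2 fell in MUTZ-1, beside the same shares of all genes. MYB averaged 281 ± 1.70 CPM after knockdown and 56.7 ± 2.37 CPM in controls in SKM-1, and 130.1 ± 2.62 CPM after knockdown and 103 ± 1.95 CPM in controls in MUTZ-1. SOX4 averaged 4.66 ± 0.472 CPM after knockdown and 157 ± 1.48 CPM in controls in SKM-1.

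Many homeobox genes outside the clusters moved in SKM-1 too. Of 67 tested, 16 rose and 47 fell, with a median log2 fold change of -2.05, against 42.1% of all genes higher and 42.3% lower. Of the 67, 51 were called at least 2-fold lower in MUTZ-1 controls than in SKM-1 controls, so genes of this list could pass the filter through SKM-1. The list's counts in either line and its median are therefore not read against those of all genes. EMX2, a gene of the forebrain and urogenital tract, averaged 0.652 ± 0.325 CPM after knockdown and 46.9 ± 0.192 CPM in controls, and HHEX, a gene of blood and endoderm, 87.1 ± 0.584 CPM after knockdown and 26.4 ± 1.58 CPM in controls. In MUTZ-1, 13 rose and 2 fell, against 24.4% of all genes higher and 24.6% lower. SATB1, a chromatin organiser of lymphocytes, averaged 12.2 ± 0.617 CPM after knockdown and 8.46 ± 0.524 CPM in controls there (0.53 ± 0.13, adjusted p = 1.67e-04).

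The genes around the clusters were called about as often as all genes. Within 1 Mb of any cluster, 28 of 76 tested genes rose and 39 fell in SKM-1, with a median log2 fold change of -0.20, and 84.4% of all genes were called there. All 4 tested neighbours of HOXD rose, while the 8 tested HOXD genes fell. EVX2, which lies 3525 bases from the cluster, did not pass the filter on low counts. It averaged 0.061 ± 0.062 CPM after knockdown and 0.17 ± 0.12 CPM in controls in SKM-1. MTX2, beyond HOXD1 of the cluster, stood at 98.1, 91.9 and 91.8 CPM after knockdown, against 75.3, 74.0 and 76.5 CPM in controls (0.32 ± 0.041, adjusted p = 9.52e-13). LNPK, on the side of HOXD13, stood at 79.8, 79.1 and 76.2 CPM after knockdown, against 72.7, 72.7 and 72.8 CPM in controls (0.11 ± 0.042, adjusted p = 0.0135). Beside HOXB, SKAP1 stood at 0.188, 0.0598 and 0.0620 CPM after knockdown, against 3.15, 3.31 and 3.05 CPM in controls (-4.85 ± 0.46, adjusted p = 2.23e-20), whereas HOXB2, the nearest HOXB gene analysed here, rose. In MUTZ-1, 22 of the 76 neighbours rose and 20 fell, with a median of 0.036, and 49.0% of all genes were called.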

How the data were processed

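RNA was sequenced in 4 groups of 3 libraries; the labels' protocols name TRIzol for the RNA and a stranded mRNA kit for the libraries. Per the submitters' processing notes, fastp, HISAT2 and HTSeq were used with build GRCh38, versions not given. The authors deposited whole-number read counts per gene, used here as deposited, and FPKM values, which equal the count divided by the library total and a length per gene (largest relative difference 7.72e-07 over 16377 genes). Annotation and strand setting were not given in the sources used here.

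The filterByExpr function of edgeR 4.0.16 (R 4.3.3) kept 13625 of 17518 genes, among them 32 of the 37 HOX genes described; some items are not reported here. TMM scaling and edgeR's robust quasi-likelihood test were run in 1 fit of 12 libraries with a mean per group, with Benjamini-Hochberg adjustment over all genes tested and a threshold of 0.05. The biological coefficient of variation was 2.44%. Log2 fold changes carry a standard error (SE), which is their size over the root of F. Between 2 groups, a fold of a HOX gene without counts in 1 of them is given as a bound (floor: 3 counts per group, libraries summed), and with 1 to 3 counts as a ratio and its 95% interval; both cover counting error only. Differences of knockdown effects are fitted values throughout. Alternatives were DESeq2 1.42.0, library totals, other filters, limma 3.58.1 on log2(FPKM + 1) and log2(FPKM + 0.1), a replicate block, 1 line alone and leaving out each library. The scripts were tested on simulated data.

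HOX genes with at least 1 CPM in a group are given by library; from each gene list, up to 3 genes per direction with the widest called change and at least 5 CPM could be named. CDX2, SKAP1, TTLL6, MTX2, LNPK, KRT19, COL3A1, KIT and HBG2 are shown beside the results, and some were chosen after their values were seen. The members and lists were chosen with earlier results of these data known.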

Additional observations from a re-analysis of the deposited data

Results flagged for a closer look

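The knockdown effect differed between the lines by a test of the difference itself (edgeR quasi-likelihood test, effect in MUTZ-1 minus effect in SKM-1, log2 scale) for 17 HOX genes. In HOXA the difference was 6.72 for HOXA3, 7.21 for HOXA4, 6.50 for HOXA5, 5.41 for HOXA6 and 5.77 for HOXA13. The values of HOXA3, HOXA4, HOXA5 and HOXA6 are fitted against SKM-1 knockdown libraries without a count and depend on the prior count of the fit, and so does that of HOXB13, which had no count in MUTZ-1 controls. In HOXB it was -0.70 for HOXB3, -1.66 for HOXB4 and -1.60 for HOXB7, which were higher after knockdown in SKM-1, and 1.51 for HOXB6 and 7.52 for HOXB13. In HOXC it was 4.03 for HOXC4, 2.59 for HOXC6, 3.35 for HOXC10, 5.88 for HOXC12 and 5.63 for HOXC13. In HOXD it was 6.71 for HOXD4 and 5.29 for HOXD13. The values of HOXB6, HOXB13, HOXC10, HOXC12, HOXC13, HOXD4 and HOXD13 rest on few MUTZ-1 counts, at most 17 over a group of 3 libraries.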

How the results depend on the processing

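The SKM-1 knockdown and the comparison of control lines each called 31 of the 32 tested HOX genes, and both counts stayed within 1.5 times of that under every alternative tried. In MUTZ-1 the count of 3 became 5 with library totals, log2(FPKM + 1) and log2(FPKM + 0.1), was 2 with DESeq2, and ran between 2 and 4 when 1 library was left out. HOXA3 gained a call there with the MUTZ-1 libraries alone and with the filter of at least 1 CPM in at least 3 libraries. For the difference of effects the count of 17 became 30 with log2(FPKM + 1) and 31 with log2(FPKM + 0.1). The cause was not tested.

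Signs changed only for genes that were not called. HOXB4 in the comparison of control lines, 0.0034 in the fit reported, was -0.060 with DESeq2, -0.13 with library totals, -0.050 with the filter of at least 1 CPM in at least 3 libraries, -0.12 with log2(FPKM + 1) and -0.13 with log2(FPKM + 0.1), and ran between -0.091 and 0.072 with 1 library left out. HOXB3 after knockdown in MUTZ-1, -0.044 in the fit reported, was 0.0032 with library totals, 0.0024 with log2(FPKM + 1) and 0.0034 with log2(FPKM + 0.1), and ran between -0.074 and 0.020 with 1 library left out. With 1 library left out, HOXB4 ran between -0.11 and 0.058 and HOXA5 between -0.049 and 0.19 after knockdown in MUTZ-1.

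Same-numbered libraries of a line did not deviate together (correlations between -0.056 and 0.027 over 10894 genes), so the numbers are no pairing. A fit with the replicate block called 2, 31, 17 and 30 HOX genes for MUTZ-1, SKM-1, the difference and the control lines, and in it HOXA4 in MUTZ-1 (adjusted p = 0.0579) and HOXC4 between lines (0.0579) lost their calls. Library totals moved the median of all genes by 0.13 for the difference and -0.14 for the control lines, and log2(FPKM + 0.1) by 0.10 and -0.13. Under about 0.06 CPM, 3 counts over a group, no HOX gene can be told from 0, which limits most HOXD genes in MUTZ-1.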
